A study of Mus musculus with 2 samples.

Results

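The cells described here are islet β cells in which no transcript of Cd79a or Aldh1a3 was seen, with fewer than 2 genes each of a short cycling and a short interferon list. A barcode was a member with at least 1500 unique molecular identifiers (UMIs, each counted as 1 transcript molecule), at least 500 genes, and a share of mitochondrial transcripts of 15% or less. Ins1 and Ins2 together had to make up at least 30% of its UMIs, with Gcg under 2%, Sst under 1% and Ppy under 5%. It had to hold 0 UMIs of Cd79a and of Aldh1a3, fewer than 2 of the 6 cycling genes Mki67, Top2a, Cdk1, Ccna2, Birc5 and Ube2c, and fewer than 2 of the 5 interferon-induced genes Ifit1, Ifit3, Rsad2, Oasl2 and Iigp1. By that rule 7566 of 21729 barcodes that passed as cells were members, 2544 of 9667 in the CD library and 5022 of 12062 in the HFD library. The members were thus chosen by measured values of these same counts, so the levels of those genes below are a description of the choice and not a result.

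Islets came from C57BL/6J mice, 13 weeks old, and their cells were sequenced singly in 2 groups of 1 library each. One group is labelled CD, which the labels do not expand, and the other received a high-fat diet (HFD) as a model of prediabetes. The sources used here do not state how many mice a library pools. With 1 library a group, no difference between diets has a replicate check or a test: every ratio below compares these libraries, its interval covers counting error only, and cells of 1 library are not replicates.

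β cells store insulin, cut from proinsulin and crystallised with zinc, in dense-core granules that they release when glucose is taken up and metabolised and the membrane depolarises. Mature β cells are marked by the transcription factor Mafa and by the peptide urocortin 3 (Ucn3), and the amyloid peptide Iapp is packed with insulin in the same granules. Cd79a is best known as a part of the B cell receptor, and Aldh1a3, a retinaldehyde dehydrogenase, is known as a mark of β cells that have lost mature features. Metallothioneins are small cysteine-rich proteins that bind zinc and other metals.

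The promoters of Ins1, which the rule read, and of Iapp, a β cell marker that it did not read, are shown. Those of the 2 genes that ranked lowest in HFD are shown also, since the results turn on them. Of 7 genes looked for (Ins1, Ins2, Iapp, Mafa, Ucn3, Mt1 and Mt2), 5 had a promoter sequence from RefSeq on build GRCm38.p6, which spans 300 bases around the gene's start. All 4 windows are on the plus strand: Ins1 at chr19:52264047-52264346, Iapp at chr6:142298175-142298474, Mt1 at chr8:94178839-94179138 and Mt2 at chr8:94172368-94172667. In Ins1 and Iapp the capitals mark CCATCTG, an E-box core of the kind that basic helix-loop-helix factors bind, searched on both strands.
Ins1: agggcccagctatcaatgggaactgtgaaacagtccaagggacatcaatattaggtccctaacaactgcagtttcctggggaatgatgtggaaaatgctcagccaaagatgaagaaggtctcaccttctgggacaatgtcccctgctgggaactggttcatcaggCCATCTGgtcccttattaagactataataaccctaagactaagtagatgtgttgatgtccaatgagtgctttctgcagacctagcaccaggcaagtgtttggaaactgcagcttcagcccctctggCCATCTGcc
Iapp: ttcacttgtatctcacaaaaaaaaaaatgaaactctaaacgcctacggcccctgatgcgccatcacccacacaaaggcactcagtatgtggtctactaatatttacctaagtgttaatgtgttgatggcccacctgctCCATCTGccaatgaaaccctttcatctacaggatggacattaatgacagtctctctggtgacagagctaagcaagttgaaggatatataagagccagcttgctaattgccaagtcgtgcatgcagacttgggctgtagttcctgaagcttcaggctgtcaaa
The Ins1 window held 2 matches and the Iapp window 1. Of 32851 promoter windows of that length, 5.30% held at least 1 match and 0.164% at least 2. In Mt1 and Mt2 the capitals mark TGCACNC or TGCGCNC, the core of the metal response element, on either strand (the reverse strand reads GNGTGCA or GNGCGCA).
Mt1: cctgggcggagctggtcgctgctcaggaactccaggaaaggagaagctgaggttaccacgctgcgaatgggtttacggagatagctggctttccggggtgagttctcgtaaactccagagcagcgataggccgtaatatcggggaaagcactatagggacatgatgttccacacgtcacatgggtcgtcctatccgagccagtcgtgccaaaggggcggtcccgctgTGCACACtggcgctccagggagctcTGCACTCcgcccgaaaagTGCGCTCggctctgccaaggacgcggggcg
Mt2: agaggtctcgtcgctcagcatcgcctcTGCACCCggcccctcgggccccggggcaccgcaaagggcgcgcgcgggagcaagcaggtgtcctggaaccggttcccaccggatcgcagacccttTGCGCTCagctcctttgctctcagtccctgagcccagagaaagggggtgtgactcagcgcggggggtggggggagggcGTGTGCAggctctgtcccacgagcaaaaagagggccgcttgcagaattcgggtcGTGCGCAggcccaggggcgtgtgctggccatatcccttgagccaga
The Mt1 window held 3 matches, all on the plus strand, and the Mt2 window 4, of which 2 were on each strand. At least 1 match was present in 25.7% of all windows, at least 3 in 1.97% and at least 4 in 0.517%. A match describes the letters of the window, and binding was not measured. The CCATCTG motif was chosen after the sequences were seen, and it does not overlap the metal response cores in these windows.

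Members made up 44.2% (exact 95% interval 42.9 to 45.5) of the 5756 CD β cells that met the hormone limits and 73.2% (72.2 to 74.3) of the 6856 HFD β cells. Most of the other β cells were set aside by Cd79a. A Cd79a UMI was present in 52.7% of CD and 18.4% of HFD β cells, and an Aldh1a3 UMI in 0.295% and 4.94%. In cells thinned to 3000 UMIs, Cd79a was seen in 1.64% of CD and 0.594% of HFD α cells, which should lack it. The median depths as deposited were 25571 and 23250 UMIs in members and 9160 and 7470 UMIs in α cells of CD and HFD. In β cells, 253 in CD and 205 in HFD had at least 2 cycling genes, and 122 and 202 had at least 2 interferon genes.

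The absence of a UMI depends on depth, but the share without Cd79a did not fall steadily as depth rose. When β cells were split by UMIs into 5 groups of equal size, the share without Cd79a was 57.6% in the shallowest CD group, between 47.3% and 58.6% in the next 3 and 23.9% in the deepest. In HFD the 5 values lay between 77.3% and 86.7%, and the deepest group was again lowest. The share without Cd79a was higher in HFD in each depth group. After thinning every β cell to 5000 UMIs the rule took 71.1% of CD and 89.2% of HFD β cells, so a member as deposited is a β cell in which Cd79a was not seen and not one shown to lack it.

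**Figure D1:**
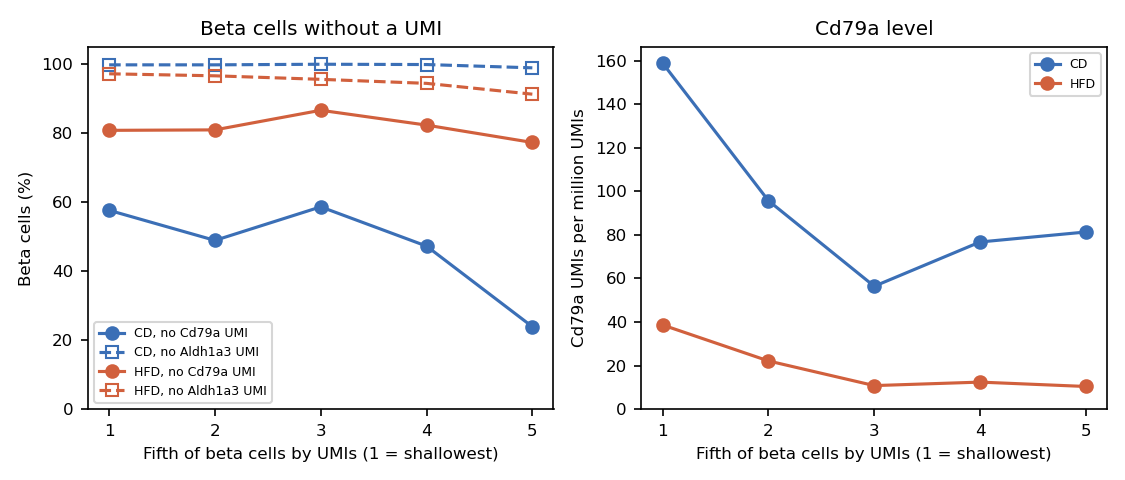
Left, the share of β cells (%) with no Cd79a UMI (circles, solid lines) and no Aldh1a3 UMI (squares, dashed lines) in 5 equal groups of cells ordered by UMIs, in CD (blue) and HFD (orange). Right, Cd79a UMIs per 1000000 UMIs of the same groups. The CD share without Cd79a is 23.9% in the deepest group and 47.3% to 58.6% in the others, while the 5 HFD values lie between 77.3% and 86.7%.

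The hormone limits cut through few cells in HFD, and through many shallow cells in CD at 1 limit. Among CD barcodes that met every other criterion, 26 had 1 to 2% Gcg and were members, and 292 had 2 to 3% and were not. Those 292 had a median of 2690 UMIs and 11.9% mitochondrial UMIs, and the 26 inside had 2924.5 UMIs and 11.2%. In HFD 39 and 47 barcodes lay inside and outside the same limit, with medians of 24391 and 27843 UMIs. At the insulin limit, 9 CD and 19 HFD members had 30 to 35% insulin UMIs, and 5 and 14 barcodes had 25 to 30%. For Sst 21 and 61 members lay at 0.5 to 1% in CD and HFD, and 23 and 48 barcodes at 1 to 1.5%. For Ppy 3 and 11 members lay at 4 to 5%, and 2 and 3 barcodes at 5 to 6%.

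The label was checked against markers that the rule did not read. Of 265836346 UMIs in CD and 271527648 in HFD, members held 68551520 and 127870828. Members had a median of 3016 genes in CD and 2760 in HFD, and a median mitochondrial share of 2.81% and 3.84%. A high doublet score was given to 4.44% of CD and 6.17% of HFD members, which the rule keeps. Only 4 barcode sequences occurred among the members of both libraries. Free RNA was estimated at 8.09% of the UMIs of CD members from 7 foreign genes and 4.38% in HFD from 3. Those genes were drawn from Gcg, Sst, Ppy and the acinar markers. The rule limits these hormones in members, and the libraries used unlike gene sets, so the estimates are rough. Of 31 further cell cycle genes none was at 0, and together they made up 584 of every 1000000 UMIs in CD and 438 in HFD members. In cycling β cells the same list made up 5295 and 4327. Stmn1, a tubulin-binding protein raised in division, made up 2.93 and 2.38 per 1000000 UMIs in members and 669 and 539 in cycling β cells. Of 25 further interferon genes 3 were at 0 in CD members and 0 in HFD members. That list made up 115 and 133 per 1000000 UMIs in members and 151 and 480 in the β cells set aside as responding to interferon, so in CD the sets differed little by it. Of the genes in the rule, Top2a had 13 and 21 UMIs over all members, and 141 CD and 207 HFD members had a UMI of exactly 1 cycling gene.

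Markers of other cells were low in members, with some exceptions. The 11 lymphocyte markers summed to 1.62 TMM-scaled counts per 1000000 UMIs (CPM) in CD and 3.32 in HFD, with 2 and 3 of them at 0. The 19 further B cell genes summed to 4.25 and 8.60 CPM, with 8 and 4 at 0. The 11 mesenchymal markers summed to 9.19 and 19.0 CPM, the 11 endothelial markers to 25.7 and 62.7, and the 11 macrophage markers to 65.3 and 119, with none at 0. C1qa supplied 37.4 and 63.0 CPM of the macrophage sum, whereas Adgre1, which defines macrophages, was at 0.0239 and 0.203. Acinar markers were at 76.4 CPM in CD and 18.4 in HFD (15 genes, 1 at 0 in each), and the 10 ductal markers at 682 and 575.

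In the cells that the rule chose, insulin transcripts made up a median of 63.0% of UMIs in CD and 63.8% in HFD. Ins2 had a median share of 46.3% in CD and 46.6% in HFD, and Ins1 16.4% and 17.2%. Iapp, which the rule did not read, had a median share of 6.67% and 6.21%. The middle 90% of members ran from 3.08% to 8.82% for Iapp in CD and from 3.45% to 8.74% in HFD, so the libraries overlapped over nearly their whole range.

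The first comparison set members beside the α, δ and pancreatic polypeptide (PP) cells of the same library. UMIs were summed per class, and levels are TMM-scaled CPM, in which a factor per class corrects for the share taken by a few very abundant transcripts. Of 1471 genes with at least 50 CPM in members of both libraries, 41 were at least 3 times as high in members as in each of the 3 other classes in both libraries (2.79%). Genes of glucose entry, insulin granules and β cell maturity led them. Of the 12 β cell markers 11 were measured and 8 of these passed that limit, of which Ins1 and Ins2 chose the cells. Of the 17 maturity genes 10 were measured and 9 passed. These lists were chosen with earlier results of these data known. Scaling by total UMIs in place of TMM left 17 genes and not 41.

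Slc2a2, the glucose transporter GLUT2, was at 408 CPM in CD members and 399 in HFD members, and at most 11.9 CPM in any other class. Its smallest ratio to another class was 33.5 and its largest 58.0. G6pc2, the islet glucose-6-phosphatase, was at 548 and 1035 CPM, with ratios of 31.1 to 49.8. Both belong to the glucose sensing list. Sytl4, the granule protein granuphilin, was at 116 and 127 CPM, with ratios of 29.0 to 61.5. Mafa was at 126 and 203 CPM (ratios 27.0 to 51.0) and Ucn3 at 178 and 315 CPM (ratios 23 to 63.2). In cells thinned to 3000 UMIs, Mafa was seen in 20.3% of CD and 27.9% of HFD members, and in 0.579% and 2.77% of α cells. Ucn3 was seen in 27.7% and 40.04% of members, and in 0.771% and 2.64% of α cells. These genes were named for their smallest ratio to any other class, so class sums that do not overlap follow from the choice. Single cells did overlap, since at that depth most members had no Mafa UMI and most had no Ucn3 UMI.

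The other genes ranked highest were of several roles. Prss53, a serine protease, had ratios of at least 26.0, Tmem215 of at least 25.3 and Trpm5, a calcium-activated cation channel, of at least 25.1. Prlr, the prolactin receptor, had ratios of at least 21.6 and Gad1, which makes GABA, of at least 21.1. Nupr1, a stress-induced nuclear protein, had ratios of at least 20.2 and Cib3 of at least 16.2. Pde5a, which breaks down cGMP, had ratios of at least 14.03, Fam151a of at least 13.0 and Papss2, which makes the sulfate donor of sulfotransferases, of at least 12.1. With total UMIs the smallest log2 ratio over other classes was 4.14 for Slc2a2, 3.22 for Ucn3 and 2.35 for Pde5a, against 5.07, 4.52 and 3.81. All 23 genes named for this comparison kept their direction under each alternative, which is no test, since they were named for extreme ratios.

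The counts by role here stand beside 2.79% of all 1471 genes. By roles, 4 of 11 measured granule cargo genes passed (Ins1, Ins2, Iapp and Ucn3), and 2 of 8 prohormone processing genes. The latter were Pcsk1, the convertase that starts proinsulin cleavage, at 156 and 227 CPM, and Ero1lb, an oxidase that forms proinsulin's disulfide bonds, at 376 and 695 CPM. Pcsk2, the second convertase, was at 1348 and 1782 CPM and had ratios of 0.527 to 1.21, so it was higher in some other classes than in members. Among 12 measured transcription factors Mafa passed. Nkx6-1, a factor of β cell identity, had ratios of 2.88 to 16.2, Pdx1, which drives insulin transcription, of 1.52 to 19.4, and Pax6, shared by endocrine cells, of 1.08 to 1.62. Of 7 measured ion channel and calcium pump genes 3 passed: Trpm5 and the calcium pumps Atp2a2 and Atp2a3. The KATP channel subunit Abcc8 had ratios of 1.04 to 1.62. Ffar1, a fatty acid receptor, and Prlr passed among 6 measured receptors, and Gjd2, the gap junction protein connexin 36, among 9 measured adhesion genes.

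Lower in members were the hormone genes Ppy and Pyy and genes of the early stress response. Of 1000 genes with at least 50 CPM in all 3 other classes of both libraries, 18 were at most 1/3 as high in members (1.8%). Scaling by total UMIs gave 41. Ppy was among the 18, and the rule limits it in members, so its place describes the choice. Pyy, a peptide of PP and α cells, was at 796 CPM in CD and 869 in HFD members, against at least 25335 CPM in each other class. Basp1, a membrane-bound growth cone protein, was at 2.05 and 2.19 CPM against at least 56.2. Gpx3, a secreted glutathione peroxidase, was at 10.8 and 23.5 CPM against at least 171. Hist3h2ba, a histone gene, and Smarca1, a chromatin remodeller, had highest ratios of 0.0969 and 0.135.

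Of 14 measured immediate early and heat shock genes, which respond within minutes to stimuli and to tissue dissociation, 7 were among the 18. Of all 1000 genes 1.8% were. Fos was at 151 and 204 CPM in members and between 1515 and 2629 in the other classes. Jun was at 98.4 and 149 CPM in members and at least 886 in the others. Ier2 was at 21.9 and 29.1 CPM, against 194 to 457. Fosb, Junb, Egr1 and Dusp1 were the other 4. The heat shock chaperones Hspa8 and Hsp90aa1 were not among them, with ratios of 0.632 to 0.910 and 0.737 to 1.18. Members also held more UMIs a cell than α cells, by the medians above, and the part of that in these ratios was not tested.

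**Figure D2:**
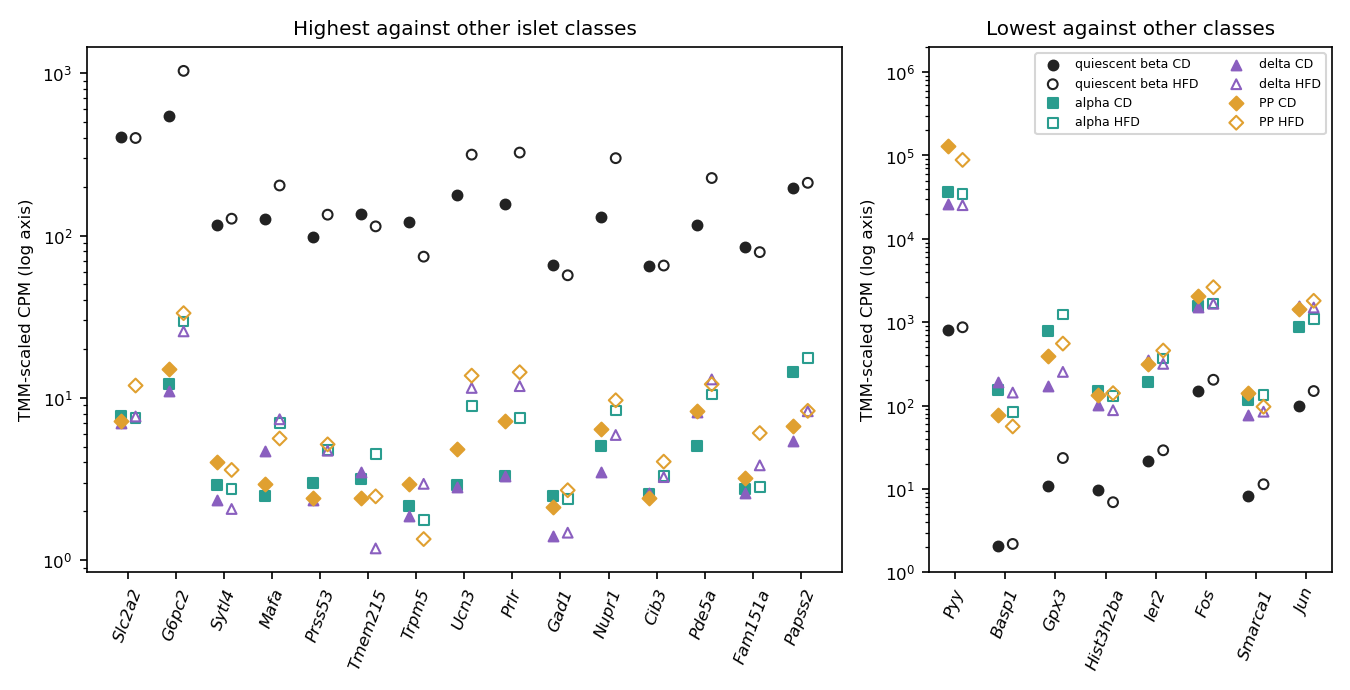
TMM-scaled CPM (log axis) in quiescent β cells (black), α cells (green), δ cells (purple) and PP cells (yellow), in CD (filled) and HFD (open), for the 15 genes with the highest and the 8 with the lowest ratio to the other classes. For Slc2a2 the members are at 408 and 399 CPM and each other class is at most at 11.9. For Fos the members are at 151 and 204 CPM and each other class is at least at 1515.

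The second comparison set HFD beside CD members, the question being how β cells differ in a prediabetes model. Metallothioneins, the tetraspanin Cd9 and the cold-inducible Rbm3 were lower in the HFD library, and Spp1, Dapl1, Gc and several maturity genes were higher. Of 1761 genes with at least 50 UMIs and 50 CPM in the higher library, 96 (5.45%) had a ratio of at least 1.5 and 36 (2.04%) a ratio of at most 1/1.5. With total UMIs the split was 39 higher and 36 lower of 923 genes, and the median log2 ratio of all genes was -0.14 in place of -0.03. The 35 genes followed through the alternatives include those named for extreme diet ratios, so their direction is no test. None of the 35 with a ratio past 1.5 times either way changed direction. Ins1, Ins2, Iapp, Slc2a2 and Chga were within that limit, and a change of sign was not counted for them.

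Mt1 and Mt2, whose promoters are printed above, had the lowest ratios. Mt1 (chr8:94179082-94180327) went from 5988 CPM in CD to 1098 in HFD members. Its log2 ratio was -2.45 (95% interval -2.46 to -2.44). Mt2 (chr8:94172664-94173568) went from 785 to 137 CPM, with a log2 ratio of -2.52 (-2.55 to -2.49). Both neighbours were lower in HFD by more than 5 times. Per cell, with members thinned to 5000 UMIs, Mt1 had a median of 16 UMIs in CD and 2 in HFD, and the middle 90% ran from 2 to 48 and from 0 to 14. It was seen in 98.5% of CD and 72.6% of HFD members, so the cells of both libraries overlapped. Mt1 was lower in HFD in the other classes also, with log2 ratios of -1.08 in α, -1.33 in δ and -0.48 in PP cells. It varied with depth within members: per 1000000 UMIs it went from 4302 in the shallowest to 3101 in the deepest of 5 CD groups and from 955 to 479 in HFD. Every HFD group was below every CD group. The groups are cells of 1 library a diet, not replicates, and Mt1 was named for its diet ratio. The 14 measured metal and antioxidant genes had a median log2 ratio of -0.24 against -0.03 for all genes, with 2 lower (the metallothioneins) and 0 higher. Among all genes 2.04% were lower and 5.45% higher. Sod2, the mitochondrial superoxide dismutase, had a log2 ratio of -0.37 and Txnip, an inhibitor of thioredoxin, 0.49.

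The other genes with the lowest ratios were of unlike roles. Cd9, a tetraspanin of the cell surface, was at 10.9 CPM in HFD against 52.4 in CD, which is -2.26 (-2.38 to -2.15) on the log2 scale. Galnt18, which starts O-glycan chains, had a log2 ratio of -1.85, and Msln, the surface protein mesothelin, of -1.62. Sult1d1, a sulfotransferase, had -1.53, T2 had -1.35 and Tmsb15b2, a thymosin with close copies between which reads could have been divided, -1.27. Dbp, a transcription factor that follows the circadian clock, was at 72.4 and 32.3 CPM, a log2 ratio of -1.16, and the sources used here do not state the time of day at sampling. S100a10, the partner of annexin A2, had -1.11 and Gstm1, a glutathione transferase, -1.09. Rbm3, a cold-inducible RNA-binding protein, went from 166 to 60.9 CPM, with a log2 ratio of -1.45. Its log2 ratios of -1.49, -1.57 and -1.41 in α, δ and PP cells were close to that.

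The genes with the highest ratios were led by Spp1, Dapl1 and Gc. Spp1, osteopontin, went from 14.01 CPM in CD to 76.5 in HFD members, with a log2 ratio of 2.45 (2.33 to 2.57). Dapl1 was at 56.7 and 288 CPM (2.35, interval 2.29 to 2.41), and Gc, the vitamin D-binding protein, at 22.4 and 111 CPM (2.31, interval 2.21 to 2.40). In members thinned to 5000 UMIs Dapl1 was seen in 14.4% of CD and 43.1% of HFD cells, and Gc in 5.98% and 26.1%. In α cells Gc had a log2 ratio of 0.26 and a level of 99.8 and 120 CPM, so HFD members were near the level of α cells and CD members below it. Fam46a, of a family of poly(A) polymerases, had a log2 ratio of 1.97, Etv1, an ETS transcription factor, of 1.95, and Pde10a, a cyclic nucleotide phosphodiesterase, of 1.51. Cd200, a surface protein that restrains myeloid cells, had 1.29 in members and -0.14, -0.55 and -0.26 in α, δ and PP cells. At 5000 UMIs a cell its mean was 0.122 UMIs in CD and 0.272 in HFD members, and 0.146 and 0.284 in β cells with Cd79a or Aldh1a3. Of the 12 genes ranked highest 11 had the same direction in α, 11 in δ and 8 in PP cells. Fewer of them, 5, 4 and 3, were past 1.5 times in those classes. For the 12 ranked lowest the counts were 9, 12 and 8 by direction and 6, 8 and 3 past 1.5 times. The same counts over all genes were not made, so these describe the named genes only. Msi2, an RNA-binding protein, had 1.24, Neat1, the noncoding RNA of paraspeckles, 1.22 and Tmod2, which caps actin filaments, 1.16.

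**Figure D3:**
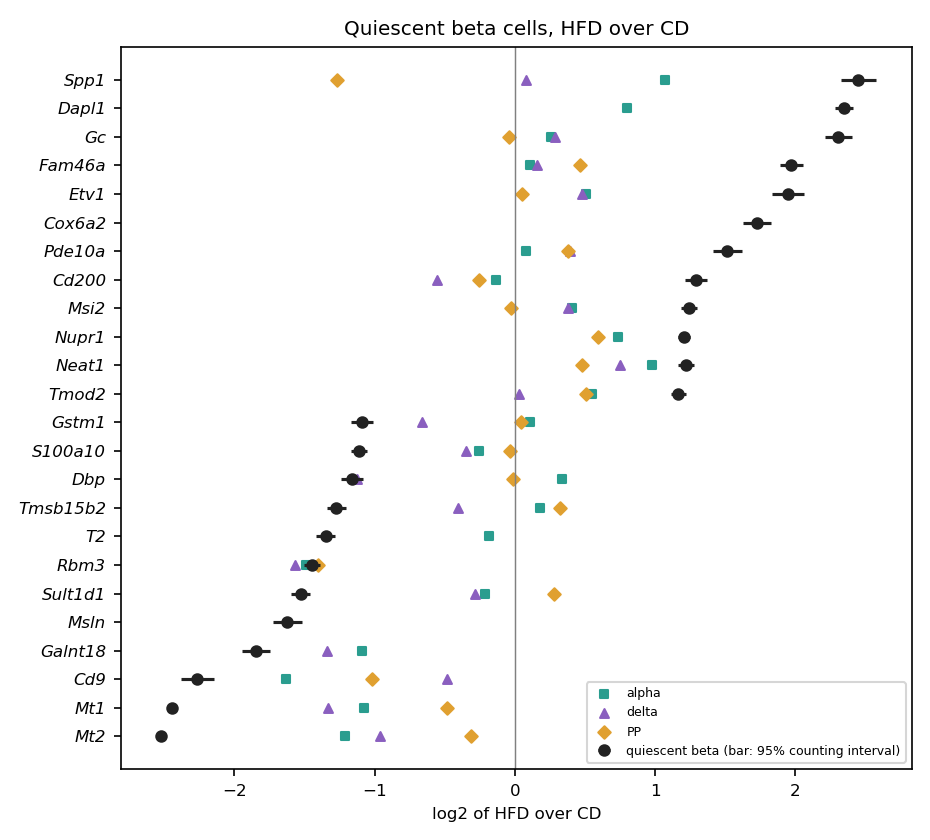
Log2 of HFD over CD for the 12 genes ranked highest and the 12 ranked lowest in quiescent β cells (black, bars are 95% counting intervals, often narrower than the point), with α (green), δ (purple) and PP cells (yellow) where a class held at least 50 UMIs of the gene in all. Rbm3 lies between -1.57 and -1.41 in all 4 classes, while Spp1 is at 2.45 in members and -1.27 in PP cells.

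Several maturity genes were higher in HFD members. Of 17 listed genes 11 were measured, 6 were higher and 1 was lower, where 5.45% of all genes were higher and 2.04% lower, with a median log2 ratio of 0.69 against -0.03 for all genes. That median lay between 0.45 and 0.76 over all alternatives. The list was chosen with earlier results of these data known, so these counts describe it and are no test. Mafa had a log2 ratio of 0.69 (0.64 to 0.73), Ucn3 of 0.83 (0.79 to 0.87) and G6pc2 of 0.92 (0.90 to 0.94). Ero1lb had 0.89, Nupr1 1.21 and Cox6a2, a cytochrome c oxidase subunit, 1.72, from 21.8 to 71.9 CPM. Trpm5 was the gene that was lower, at 122 and 74.1 CPM and a log2 ratio of -0.71. Slc2a2 had a ratio near 1, with a log2 value of -0.03 (-0.06 to -0.00). In thinned members Ucn3 was seen in 39.6% of CD and 57.5% of HFD cells and Mafa in 29.97% and 40.7%. Ucn3 per 1000000 UMIs lay between 93.9 and 113 over the 5 CD groups of members by depth. Over the HFD groups it lay between 175 and 196, and the G6pc2 ranges were 315 to 367 and 560 to 640. These groups are cells of 1 library a diet and not replicates. The share of all genes with such separate ranges was not computed. In other classes, where its level was at most 13.7 CPM, Ucn3 had log2 ratios of 1.62 in α, 2.03 in δ and 1.51 in PP cells. Of 22 immaturity and disallowed genes 1 was measured, Sox4, a factor of endocrine progenitors, at 58.9 and 38.0 CPM and a log2 ratio of -0.63. Its ratio was past the limit for lower. Ldha, a disallowed glycolytic gene, was at 0.286 and 0.959 CPM, under the filter.

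Granule cargo differed little except at single genes. Of 11 measured cargo genes 2 were higher, with a median log2 ratio of 0.02. The counts in the lists here stand beside 5.45% higher and 2.04% lower among all genes. Nucb2, the precursor of nesfatin, was at 85.5 and 175 CPM, a log2 ratio of 1.03, and Ucn3 was the other. Ins1 and Ins2 had log2 ratios of 0.11 and 0.08, and Iapp -0.01. Chga, chromogranin A, had -0.30 and Scg2, secretogranin II, 0.57, both within the limit of 1.5 times. Among 8 measured processing genes 2 were higher, Pam, which amidates peptides, with 0.81 and Ero1lb. Cpe, the carboxypeptidase that trims proinsulin, had 0.58 and Pcsk1 0.54. The folding enzymes Pdia3 and Pdia4 had -0.29 and -0.44. Of 6 granule membrane and zinc genes 2 were higher, Ptprn, a granule phosphatase-like protein, with 0.74 and Atp6ap1, of the proton pump, with 0.77. The zinc transporter Slc30a8 had -0.09. No gene of 10 in exocytosis passed the limit, with a median of 0.22.

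Glucose sensing, channel and receptor lists also held single genes past the limit, beside the same 5.45% and 2.04% of all genes. Of 6 measured glucose sensing genes 2 were higher, G6pc2 and the citrate carrier Slc25a1 (0.63), while Pkm and Aldoa of glycolysis had -0.35 and -0.39. Of 7 measured channel genes 1 was higher, Atp2a3 with 0.67, and 1 lower, Trpm5. Abcc8 had 0.31. Among 6 incretin and cAMP genes 2 were higher, Rapgef4, a cAMP sensor, with 0.64 and Pde10a. The incretin receptor Gipr had -0.41 and Glp1r, at 3.197 and 2.11 CPM, was under the filter. Among 6 other receptors 2 were higher. Prlr went from 156 to 325 CPM (log2 ratio 1.06, interval 1.02 to 1.10) and was seen in 37.0% of CD and 57.9% of HFD thinned members. The purine receptor P2ry1 had 0.60. Of 13 measured transcription factors 12 had a ratio above 1 and 1, Mafa, passed the limit, with a median of 0.29. Among all 1761 genes 820 had a ratio above 1, with a median of -0.03. Nkx6-1 had 0.45, Pax6 0.34 and Pdx1 0.06.

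Protein folding and the nuclear genes of respiration had medians near that of all genes, and the mitochondrially encoded genes a higher one. Beside the counts here, 5.45% of all genes were higher and 2.04% lower, a set that leaves out mitochondrially encoded genes. None of 16 measured endoplasmic reticulum folding genes passed the limit and their median log2 ratio was -0.12. The chaperone Hspa5 was at 613 and 509 CPM (-0.27) and Ddit3, a factor of the stress response, at 57.5 and 38.5 CPM (-0.58). Of 23 measured nuclear genes of the respiratory chain 1 was higher, Cox6a2, with a median of -0.11. The 12 mitochondrially encoded genes had a median of 0.52, and 5 of them were higher, led by mt-Nd3 with 1.09 and mt-Nd1 with 0.94. That moved with the mitochondrial share of UMIs, 2.81% in CD and 3.84% in HFD members, and its part in the other ratios was not tested. With members limited to at most 10% mitochondrial UMIs, 102 genes were higher and 35 lower.

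In the lipid, adhesion and stress lists single genes passed the limit, where 5.45% of all genes were higher and 2.04% lower. Of 6 measured cholesterol and fatty acid synthesis genes 2 were higher, among them Insig1, which holds back sterol synthesis, with 0.80. None of 4 fatty acid oxidation genes and none of 7 amino acid transporters passed. Among 10 adhesion genes Tspan7 was higher (0.73), and Epcam (-0.59) and Cd9 were lower. Of 12 immediate early and heat shock genes 3 were higher and 1 lower: Jun (0.60), the chaperones Hsph1 (0.71) and Dnajb1 (1.14), and Junb (-0.63). Of 5 antigen presentation genes Cd200 was higher. The class I genes H2-K1 and H2-D1 had -0.00 and -0.42. Of 3 measured cyclin and inhibitor genes none passed: Ccnd2, the main D-type cyclin of β cells, was at 523 and 765 CPM (0.55) and Cdk4 had -0.44. Of 3 measured cell cycle genes 1 was lower, Hmgn2, which has close copies elsewhere in the genome. The 1 measured interferon gene was within the limit.

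Markers of other cells differed between the diets in some lists, again beside 5.45% higher and 2.04% lower among all genes. The 15 acinar markers summed to 76.4 CPM in CD and 18.4 in HFD members, and to 100 and 23.3 in α cells. The 11 endothelial markers summed to 25.7 and 62.7, with α cells at 55.01 and 217. Among α cell markers 3 of 6 measured were higher in HFD members: Gc, Ttr, the thyroid hormone carrier transthyretin, at 1159 and 2180 CPM (0.91), and Tmem27 (0.72). Irx2, which defines α cells, was at 0.954 and 1.23 CPM. Of 6 measured PP cell markers Etv1 was higher and Cd9 lower, and of 2 δ cell markers neither passed. Of 6 measured ductal markers Spp1 and Clu (0.89) were higher and Krt7 (-0.66) and Epcam lower, and 1 of the 10 was at 0 in each library. Of 1 measured macrophage marker, C1qa, the log2 ratio was 0.75. Spp1 was at 4.47 and 19.4 times the level that free RNA would bring in CD and HFD, Gc at 7.15 and 42.8 times, Ttr at 2.99 and 7.27 times and Clu at 1.53 and 5.08 times, and with free RNA subtracted 112 genes were higher and 35 lower. What those cells and free RNA contributed beyond that was not tested.

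The third comparison set members beside the β cells with Cd79a or Aldh1a3, 2849 in CD and 1433 in HFD. Those cells were neither cycling nor responding to interferon. Of them, 2845 CD and 1198 HFD cells had Cd79a, and 15 and 306 had Aldh1a3, so their make-up differed between the libraries. Cells of both sets were thinned to 5000 UMIs, which left 2376 and 4838 members (168 and 184 left out) and 2822 and 1425 of the others (27 and 8 left out). The sets were nearly alike. Of 8019 genes 4 were at least 1.5 times higher in members in both libraries (0.0499%) and 25 at least 1.5 times lower (0.312%), Cd79a among them by the rule. No gene of the β cell marker, maturity or β cell transcription factor lists passed, and the median log2 difference of the maturity list was 0.05 in CD and -0.02 in HFD. With 10000 UMIs a cell the counts were 7 and 46.

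Higher in members were S100z, Gatm, Spp1 and Map2k5. S100z, a calcium-binding protein, had 138 UMIs per 1000 members and 57.4 per 1000 other cells in CD, a log2 difference of 1.26 (0.99 to 1.54). In HFD it had 130 and 58.2, a difference of 1.15 with a lower bound of 0.82. Gatm, the first enzyme of creatine synthesis, had log2 differences of 0.78 in CD and 0.71 in HFD, and Spp1 of 0.72 and 0.65. Map2k5, a kinase of the ERK5 cascade, had 0.59 and 0.61, with an HFD interval of -0.13 to 1.42 that includes 0.

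Lower in members were class II antigen presentation genes the δ cell genes Sst and Rbp4, and genes of several other roles. Anpep, aminopeptidase N, had 35.4 UMIs per 1000 CD members and 106 per 1000 other cells, a log2 difference of -1.58 (-1.95 to -1.23), and -1.18 (-1.46 to -0.89) in HFD. It was seen in 3.24% and 9.64% of the CD sets and in 4.88% and 11.2% of the HFD sets. H2-Ab1, H2-Aa and Cd74, which present peptides to T cells, had CD differences of -2.25, -1.71 and -1.34 and HFD differences of -1.30, -1.22 and -0.89. Cd74 was however seen in 0.926% of CD members and 0.992% of the other CD cells, and a few cells with many UMIs carried the difference. A high doublet score was given to 6.56% of CD and 8.30% of HFD cells with Cd79a or Aldh1a3, against 4.44% and 6.17% of members, and the part of such cells was not tested. The macrophage markers summed to 202 UMIs per 1000 members and 320 per 1000 other cells in CD and to 328 and 560 in HFD. Apoe, the lipid carrier among them, had differences of -1.05 and -1.22. It was seen in 3.32% of members and 3.90% of the other cells in CD and in 3.204% and 3.23% in HFD, so here too a few cells with many UMIs carried the difference.

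Rbp4, the retinol carrier of δ cells, had -0.68 and -0.89. Sst, which the rule limits, had -0.66 and -0.72, although it was seen in 25.1% of members and 24.3% of the other cells in CD and in 27.5% and 28% in HFD. Uchl1, a deubiquitinase of neuroendocrine cells, had -0.99 and -1.03, Fam159b -1.10 and -1.20, and Nfix, a transcription factor, -0.88 and -1.09. Hlf, a relative of Dbp, had -1.05 and -0.81 and Gabpb1, a subunit of the GA-binding protein, -0.85 and -0.88. The transporters Slc2a13 and Slc29a4 had -1.38 and -0.89, and -0.75 and -0.90. Snhg18, a noncoding RNA, had -0.89 and -0.69, and Ddx19a, an RNA helicase, -0.67 and -0.73. Each of these was lower in members of both libraries.

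**Figure D4:**
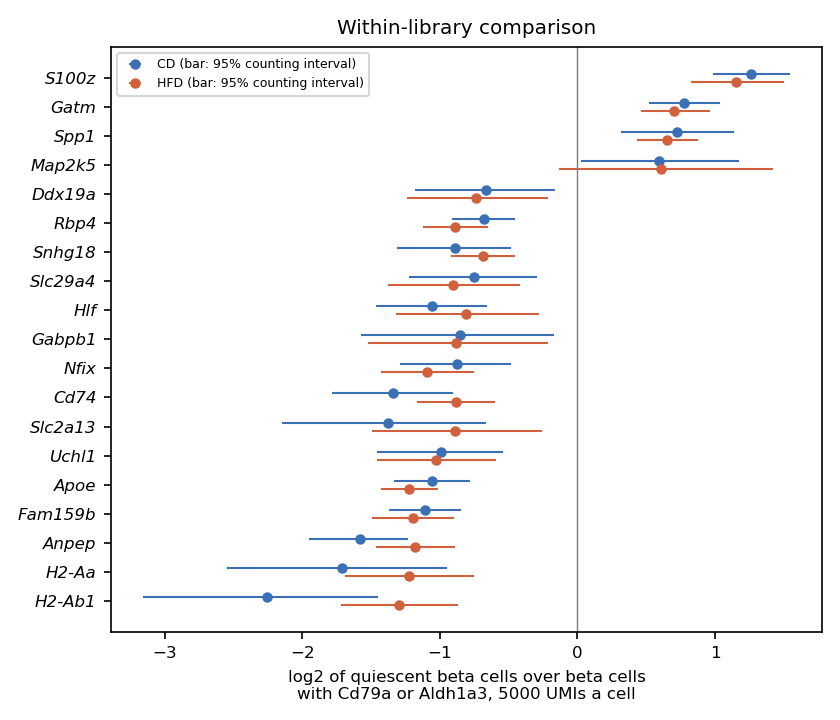
Log2 of UMIs per cell in quiescent β cells over β cells with Cd79a or Aldh1a3, at 5000 UMIs a cell, in CD (blue) and HFD (orange), for the 4 higher genes and the 15 lower genes of highest rank, with 95% counting intervals as bars. S100z is at 1.26 and 1.15 and Anpep at -1.58 and -1.18. Of the 19 genes, Map2k5 in HFD is the 1 whose interval includes 0.

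Members also differed among themselves. In members thinned to 5000 UMIs, 30 of 4294 genes had a variance of at least 1.5 times their mean in both libraries (0.699%), where a variance equal to the mean is what counting alone gives. The rule set a minimum for Ins1 and Ins2 together and the depth was fixed, so the spread of these genes describes the choice in part. Ins2 had a coefficient of variation of 8.42% in CD and 8.58% in HFD. That of Ins1 was 19.3% and 17.1%, and that of Iapp 22.9% and 27.7%, with medians of 338 and 311 UMIs a cell. Malat1, a nuclear noncoding RNA, had medians of 35 and 42 UMIs with a middle 50% of 26 to 45 and 29 to 61. Chga had medians of 15 and 11 UMIs and Scg2 of 8 and 12. Ratios of variance to mean were 29.0 and 24.6 for Malat1, 17.6 and 24.1 for Iapp, 11.3 and 7.67 for Mt1 and 7.86 and 6.44 for Chga. Mt2, Scg2, Nupr1 and Resp18, a protein of dense-core granules, had ratios between 2.34 and 3.40.

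For some genes a small share of cells held much of the UMIs. Hbb-bs, the β-globin of red cells, was seen in 0.758% of CD and 2.98% of HFD members, and 1 cell in 100 held 100% and 86.2% of its UMIs. Its level was below what free RNA would bring in both libraries. For Pyy the top 1% of cells held 47.7% and 36.4% of UMIs, for Apoe 64.3% and 77.1% and for Rbp4 57.3% and 46.6%. Those markers of other cells were seen in few members or at a median of at most 1 UMI.

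Over the cells of 1 library, which share that library and a fixed depth of 5000 UMIs, Mt1 and Mt2 varied together. Their correlation was 0.72 over 2376 CD members and 0.68 over 4838 HFD members. Chga and Malat1 had 0.60 and 0.39, Ins1 and Ins2 0.35 and 0.22, and Ins1 and Malat1 -0.46 and -0.38. With a fixed total, insulin UMIs and all others are bound to oppose each other. Malat1 per 1000000 UMIs was 16188 in the shallowest group of CD members and 6102 in the deepest, and 13900 and 7376 in HFD. The shallowest CD group also had a median of 5.18% mitochondrial UMIs against 2.52% in the deepest. Iapp and Ins2 had -0.17 and -0.31, and Mafa and Ucn3 -0.00 and 0.02, at levels under 1 UMI a cell where a weak correlation is no finding.

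**Figure D5:**
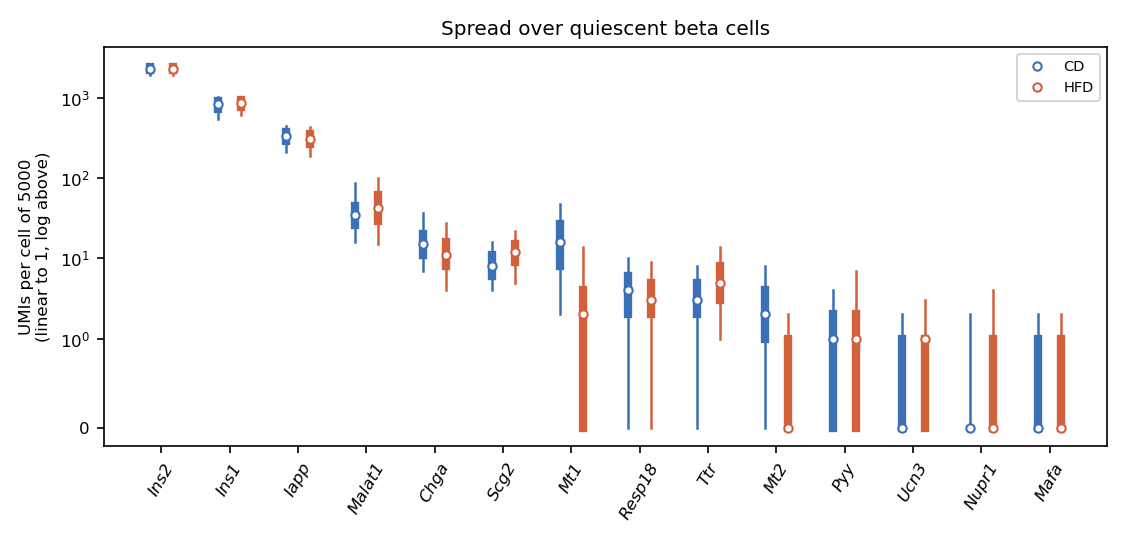
UMIs a cell in quiescent β cells thinned to 5000 UMIs (linear up to 1, log above) for 14 genes in CD (blue) and HFD (orange), with the median (open circle), middle 50% (thick line) and middle 90% (thin line) of cells. Mt1 has a median of 16 in CD and 2 in HFD, while Ins2 has 2326 and 2335.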

How the data were processed

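The data are droplet-based transcript counts of single islet cells in 2 libraries, CD and HFD. The deposited matrices hold raw counts of UMIs per gene and barcode that the authors made with Cell Ranger 6.0.1 on mm10, per the submitters' processing notes; the file headers name software version 3.0.2. Every barcode is listed, so no cells had been selected. Of 31053 gene identifiers 31011 matched GENCODE M21 (GRCm38, the same build), the source of gene positions.

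Members were taken by the rule given above. α, δ and PP cells had at least 5% Gcg, 5% Sst or 10% Ppy, under 15% Ins1 and Ins2, and met the limits on the other hormones. The UMIs of each class in each library were added up, and the 8 sums were scaled by TMM (factors 0.611 and 0.579 in CD and HFD members), checked against edgeR 4.0.16 and tested on simulated data. Intervals are exact (conditional binomial for ratios, Clopper-Pearson for shares, 95%) and cover counting error only. Doublets were scored with scrublet in scanpy 1.11.5 (0.8% per 1000 barcodes) and kept. Free RNA was read from barcodes of 10 to 100 UMIs.

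Named genes were the 15 highest and 8 lowest by their least extreme ratio to the other classes, the 12 highest and 12 lowest diet ratios by the interval bound nearest 1 (at least 3 times the free RNA level), the 12 with the largest variance over mean, up to 15 each way against β cells with Cd79a or Aldh1a3, and members of 34 gene lists. Ribosomal, mitochondrially encoded and unnamed genes were left out of rankings. The members and lists were chosen with earlier results of these data known. Alternatives covered cell limits, doublets, scaling, thinning, free RNA and filters.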

Additional observations from a re-analysis of the deposited data

Results flagged for a closer look

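Spp1 had a log2 ratio of HFD over CD of 2.45 in quiescent β cells and of -1.27 in PP cells, the opposite direction under the same contrast. In PP cells it was at 383 CPM in CD and 159 in HFD, and in members at 14.01 and 76.5. With 1 library a diet the difference between the classes was not tested.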

How the results depend on the processing

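No paired analysis was possible because each diet has 1 library, so the groups share a single replicate number. Depth limits the border of the population: with every cell thinned to 5000 UMIs there were 3953 CD members, 71.1% of CD and 89.2% of HFD β cells. Within 15000 to 40000 UMIs, a window chosen after seeing the data, the shares were 49.0% and 74.5%. Scaling by total UMIs gave 17 genes at least 3 times and 41 at most 1/3 the other classes, and 39 higher in HFD. A filter at 20 UMIs and 20 CPM gave 82, 30, 195 and, for lower in HFD, 76, and no filter beyond 1 UMI gave 2998 higher and 1414 lower of 15254. Against β cells with Cd79a or Aldh1a3, thinning to 10000 UMIs gave 7 higher and 46 lower, and no thinning 21 and 50. Genes with a variance of at least 1.5 times the mean numbered 50 at 10000 UMIs and 573 unthinned. The cause of these shifts was not tested, except that a looser filter tests more genes. The other counts under each alternative were within 1.5 times of those reported. None of 350 diet values over 35 genes was counted as reversed, where a change of sign counted only for genes past 1.5 times. None of 230 class values over 23 genes reversed. Both sets hold genes named for extreme ratios, so neither count is a test. Cells removed for a high doublet score left 2431 and 4712 members.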
